A study of Mus musculus with 12 samples.

Results

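The genes described here are Cilp, which encodes cartilage intermediate layer protein, and 9 genes of the small leucine-rich proteoglycan family, Aspn, Dcn, Lum, Bgn, Fmod, Ogn, Prelp, Omd and Podn. They are 10 of the 46983 genes listed in the deposited expression table, found there by matching the Ensembl identifiers to these symbols, and all 10 were among the 18023 genes that reached 0.1 FPKM in at least 3 of the 12 libraries and were therefore tested. FPKM is the number of sequenced fragments of a gene, scaled to the length of its exons and to the mapped fragments of the library. Cilp was chosen by its measured change in WT cells from 0d to 5d, where it was among the 3 genes that rose most, with the log2 change between the group means at 7.30. The neighbouring values in that order were 7.34 for Myh3 just above it and 7.13 for Mymx just below the limit. Any value of Cilp that rests on WT libraries is therefore given as a description with no test. The other 9 genes were listed by family.

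The libraries were made from C2C12, a mouse myoblast cell line that fuses into myotubes in culture. WT cells are labelled PbIP, after PB-IP, the PiggyBac vector of the study, and how they were made is not given in the sources used here. PPARγ/+ cells had received that vector with the coding sequence of PPARγ, a nuclear receptor best known for driving fat cell formation, and had been selected with puromycin. The number of clones in either line is not given in these sources. RNA of each was sequenced on 0d and after 5d of differentiation, so that there were 4 groups (WT_0d, WT_5d, PPARγ/+_0d and PPARγ/+_5d) of 3 libraries. The series text also speaks of induced cells and uninduced controls, while the sample labels name only a wild type and a PPARγ/+ genotype, and the groups here follow the sample labels.

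Small leucine-rich proteoglycans are secreted proteins of the extracellular matrix whose leucine-rich repeats bind collagen, and most of them carry chondroitin, dermatan or keratan sulfate chains. They set how collagen fibrils form, and several bind growth factors such as TGF-β. In muscle, decorin and biglycan belong to the matrix around the fibres and bind TGF-β and myostatin, and Cilp, which is no member of the family, is a matrix glycoprotein of cartilage that is known to bind TGF-β1.

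Mapped fragments ranged from 18581300 to 26073154 per library. Pparg was at 3.12 to 7.56 FPKM in the 6 WT libraries and at 28.0 to 92.7 FPKM in the 6 PPARγ/+ libraries, so that every library matched its label. Myog, a transcription factor of early myotubes, was at 90.0 to 271 FPKM in WT_5d and at 78.8 to 90.3 FPKM in PPARγ/+_5d, against 0.603 to 15.7 FPKM in the 0d libraries. WT_0d replicate 2 had the highest Myog level of the 0d libraries, 15.7 FPKM, and WT_5d replicate 3 the lowest Myog level of WT_5d, 90.0 FPKM. Results that rest on either library are given with and without it where that changed a call, and for Dcn, Fmod and Prelp also for the size of the change.

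Several of these genes lie side by side in the genome. On GRCm38, Aspn (chr13:49544443-49567565), Omd (chr13:49582462-49592822) and Ogn (chr13:49608046-49624501) follow each other on the plus strand with gaps of 14.9 kb and 15.2 kb, and the related Ecm2 ends 11.7 kb before Aspn. Dcn (chr10:97479609-97518143) and Lum (chr10:97565128-97572703) are neighbours 47.0 kb apart. Prelp (chr1:133910304-133921414, minus strand) and Fmod (chr1:134037254-134048277, plus strand) lie 115.8 kb apart. Bgn (chrX:73483602-73495933), Podn (chr4:108014791-108096445) and Cilp (chr9:65265180-65280605) each lie on a chromosome that holds none of the other genes described here. The span of Podn, on the minus strand, overlaps other genes, among them Scp2 on the same strand, with 0 bp of shared exon in each case. Scp2 reached 36.8 FPKM. The span of Podn also extends further upstream than its RefSeq promoter windows given below. Because the strand setting of the authors' count is not given in the sources used here, reads of Aspn and of Cenpp, which lies on the opposite strand and shares 7 bp of exon with it, cannot be told apart over that stretch, and the same holds for 350 bp that Prelp shares with Gm15851, which did not exceed 0.0813 FPKM in any library.

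The 250 bases before the transcription start were read from RefSeq promoters on GRCm38.p6, which hold 8 of the 10 genes (Dcn and Lum were not matched). Those of Cilp are shown because it was the gene chosen by its measured change in WT cells, those of the neighbours Omd and Ogn because their levels moved together across libraries, and that of Fmod because Fmod and Omd were the genes that differed between cell types on 0d. Capitals mark each CANNTG, the E-box that myogenic bHLH factors can bind, whose letters read the same way on both strands.
Cilp (chr9:65264930-65265179, plus strand): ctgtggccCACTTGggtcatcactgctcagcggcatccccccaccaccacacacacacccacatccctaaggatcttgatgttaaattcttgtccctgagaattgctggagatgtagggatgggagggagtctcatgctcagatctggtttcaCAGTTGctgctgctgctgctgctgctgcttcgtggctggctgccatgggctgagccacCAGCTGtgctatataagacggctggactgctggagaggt
Omd (chr13:49582212-49582461, plus strand): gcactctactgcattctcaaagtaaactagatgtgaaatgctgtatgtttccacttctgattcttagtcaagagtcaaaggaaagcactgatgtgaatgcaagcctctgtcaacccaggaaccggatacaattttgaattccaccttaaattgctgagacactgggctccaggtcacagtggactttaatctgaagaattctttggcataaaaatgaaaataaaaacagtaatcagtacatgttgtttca
Ogn (chr13:49607765-49608014, plus strand): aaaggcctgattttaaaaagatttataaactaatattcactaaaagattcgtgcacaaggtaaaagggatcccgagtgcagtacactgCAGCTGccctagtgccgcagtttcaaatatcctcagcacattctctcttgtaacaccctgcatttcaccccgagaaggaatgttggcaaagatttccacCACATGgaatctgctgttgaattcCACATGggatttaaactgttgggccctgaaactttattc
Fmod (chr1:134037004-134037253, plus strand): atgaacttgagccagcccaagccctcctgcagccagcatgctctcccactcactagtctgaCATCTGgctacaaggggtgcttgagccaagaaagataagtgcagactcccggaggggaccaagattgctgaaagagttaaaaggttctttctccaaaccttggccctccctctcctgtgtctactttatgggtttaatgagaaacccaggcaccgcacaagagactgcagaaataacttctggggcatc
Cilp held 3 such E-boxes in its window and Ogn also held 3, with the nearest to the start in both at 39 bases before it, Fmod held 1 at 189 bases before the start, and Omd held 0. An E-box was found in 6 of the 8 genes (Aspn, Bgn, Cilp, Fmod, Ogn and Podn), against 66.2% of all 32817 RefSeq promoter windows of that length. The form CAGCTG, which is contained in CANNTG, was found in 4 of the 8 (Bgn, Cilp, Ogn and Podn), against 13.01% of all windows. Podn had windows at chr4:108030987-108031236 and chr4:108031955-108032204 and was counted when either held the letters, whereas the percentages are per window. Only the first of these windows held CAGCTG. The letters TATAAA, as in a TATA box, were found in Aspn and Ogn (12.4% of windows, either strand), and CATTCC in Ogn (12.6%). Neither the MEF2 motif (2.92%) nor the direct repeat AGGTCANAGGTCA (0.0335%) was found in any of the 8. Every TATAAA match in Aspn and Ogn lay further from the start than any E-box of the same gene. Cilp held the letters tatataag between its CAGCTG, at 39 bases, and the start, which the search for TATAAA does not count. Whether any of these acts as a TATA box was not tested. These matches describe letters within the windows.

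The 10 genes together made up 0.111% to 0.207% of the summed FPKM in WT_0d and 0.626% to 0.766% in WT_5d. In PPARγ/+ cells the share was 0.211% to 0.358% on 0d and 1.01% to 1.07% on 5d. Bgn, Ogn and Dcn together held 84.3% to 95.7% of that sum in every library. In WT_0d, Bgn (mean 248 FPKM) and Ogn (146 FPKM) stood far above Dcn (18.9 FPKM), while Lum (0.0274 FPKM) and Podn (0.103 FPKM) were lowest. In PPARγ/+_5d the levels of Bgn (957 FPKM) and Ogn (941 FPKM) overlapped, followed by Dcn (479 FPKM), Cilp (217 FPKM), Omd (87.5 FPKM), Prelp (74.2 FPKM), Fmod (30.4 FPKM), Aspn (10.1 FPKM), Lum (6.76 FPKM) and Podn (0.915 FPKM). From Ogn on, the libraries of neighbours in that order did not overlap.

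**Figure D1:**
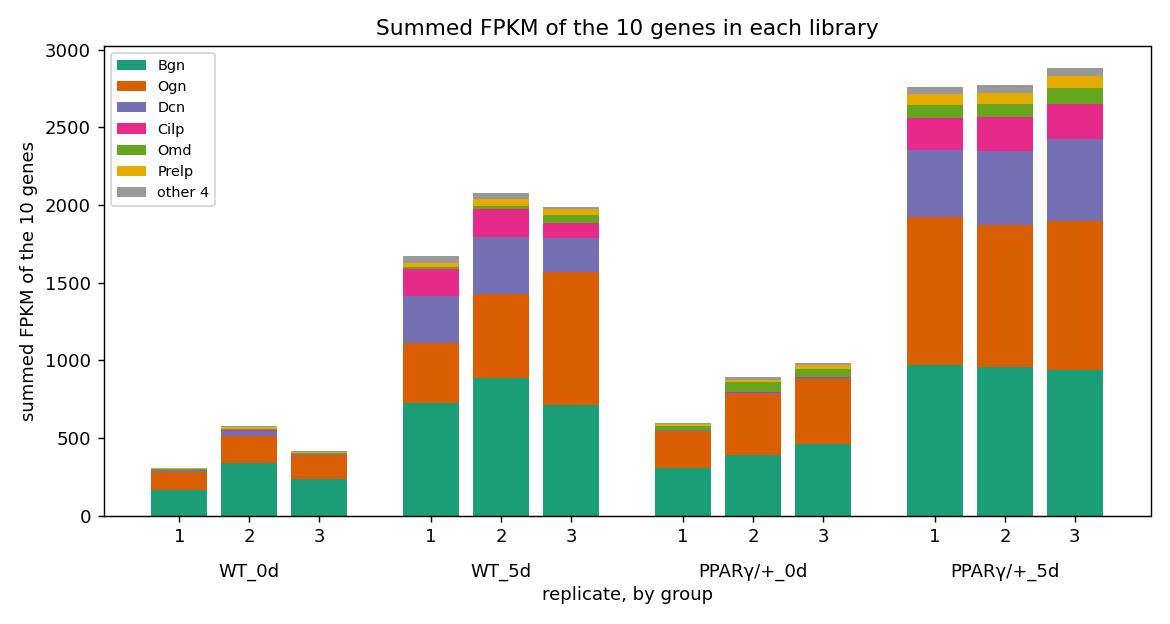
Summed FPKM of Cilp and the 9 proteoglycan genes in each of the 12 libraries (y axis, FPKM; x axis, replicate within the 4 groups), split by gene, with Aspn, Lum, Fmod and Podn added together in grey. The sum was 309 to 579 in WT_0d, 1675 to 2081 in WT_5d, 600 to 985 in PPARγ/+_0d and 2761 to 2881 in PPARγ/+_5d, and Bgn, Ogn and Dcn held most of it in every library.

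From 0d to 5d, the genes were higher in both cell types. In WT cells all 9 tested genes rose (unadjusted p of at most 0.05 and at least 2-fold by limma, the study's cutoffs), where 8.94% of all tested genes were called higher. Since the same WT contrast was used to choose Cilp, nothing is read from that background. In PPARγ/+ cells 9 of 10 genes rose, against 9.11% of all tested genes called higher, and Omd was just under 2-fold. The median log2 change of the 9 genes other than Cilp was 1.97 for WT, and that of all 10 genes was 1.54 for PPARγ/+, beside medians over all tested genes of −0.08 and −0.10. The 0d and 5d libraries did not overlap for any of the 9 genes in WT cells, beside 20.2% of all tested genes with higher 5d libraries, nor for any of the 10 genes in PPARγ/+ cells, beside 23.8%. In bulk RNA, a change in how many cells of the culture express a gene and a change in the RNA per cell cannot be told apart.

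**Figure D2:**
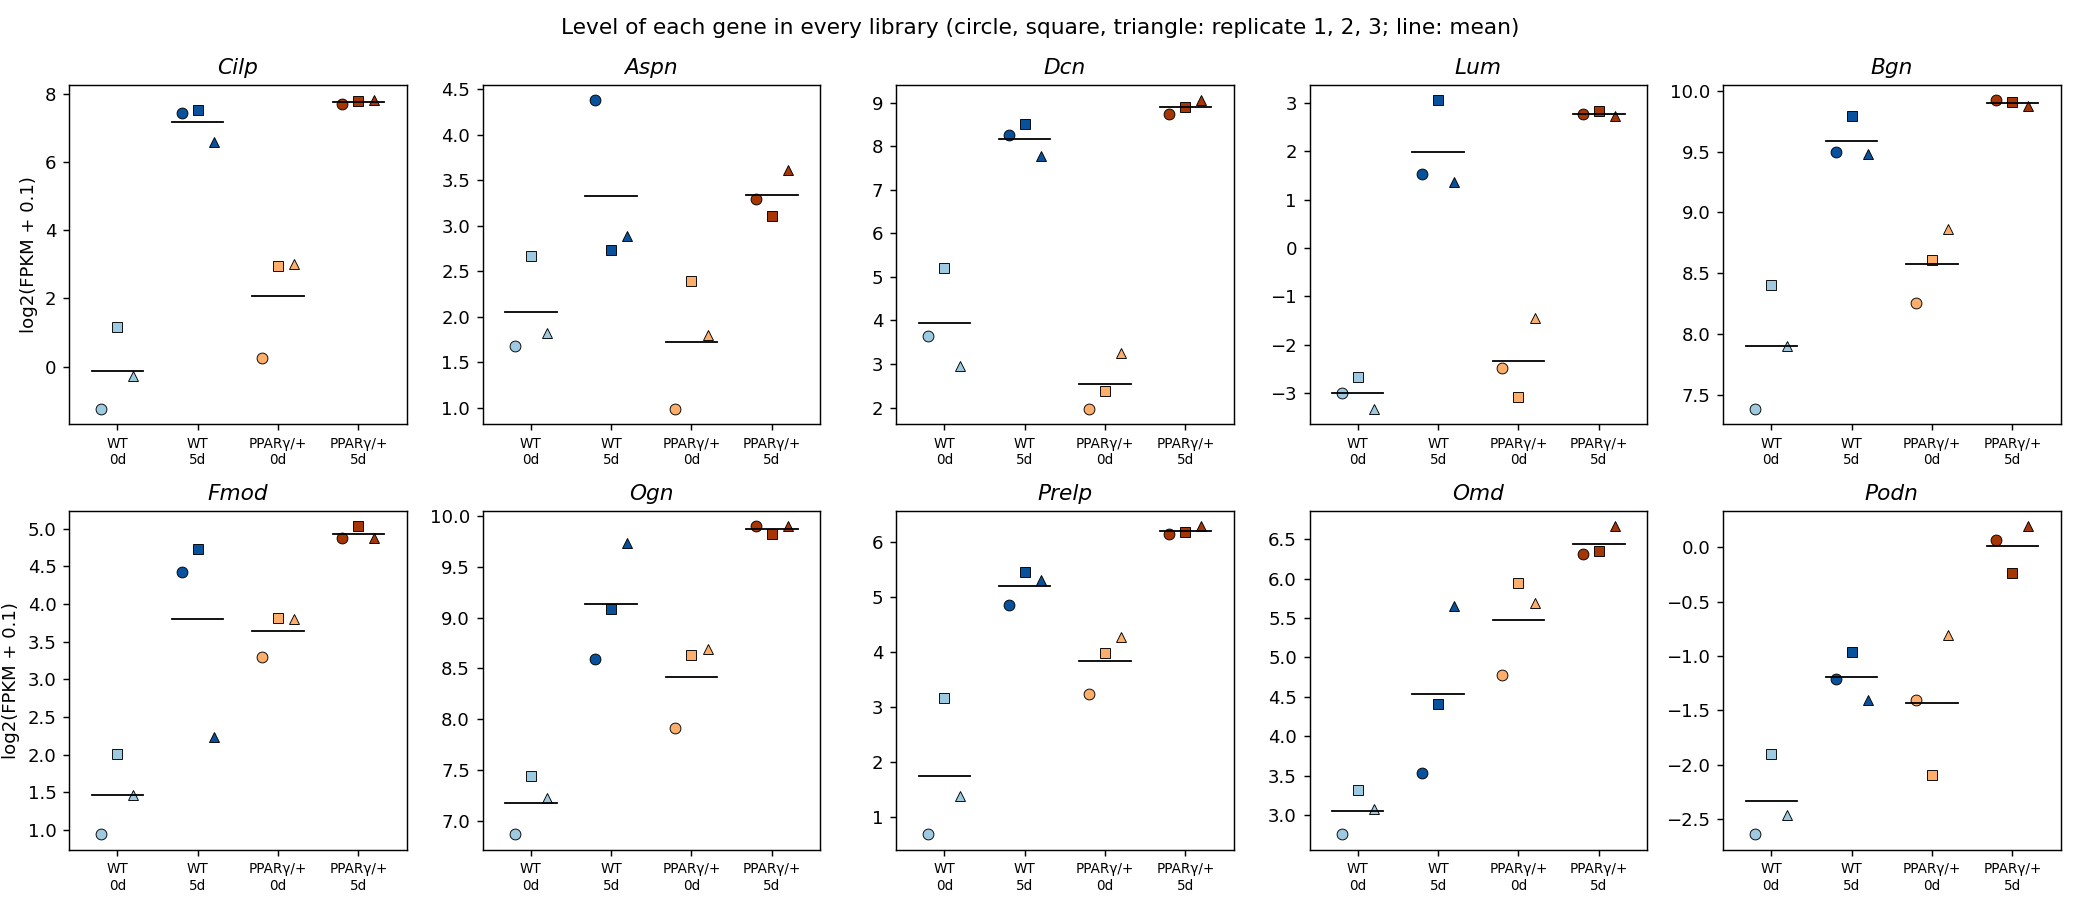
Level of each of the 10 genes on the log2(FPKM + 0.1) scale (y axis, with its own range for each gene) in the 4 groups (x axis), with 1 symbol per library and a line at the group mean. Within each cell type every 5d library lies above every 0d library for all 10 genes, and the 3 PPARγ/+_5d libraries lie closest together for most genes.

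Cilp was at 0.327, 2.13 and 0.721 FPKM in the 3 WT_0d libraries and at 174, 182 and 95.9 FPKM in WT_5d. The mean was 1.06 ± 0.95 (SD, n = 3) on 0d and 151 ± 47.6 (n = 3) on 5d, and the WT libraries of the 2 days were far apart. In PPARγ/+ cells, where the rule used no value, Cilp was at 1.10, 7.57 and 8.01 FPKM on 0d and at 208, 222 and 223 FPKM on 5d. That was a log2 change of 5.69 (SE 0.70, limma adjusted p = 0.000811), the 30th highest of the 18023 tested genes. PPARγ/+_0d replicate 1 was the lowest of its group, and without it the log2 change was 4.79. The 3 PPARγ/+_5d libraries lay within a narrow range. Cilp2, the paralog of Cilp, stayed low, at 0.163 to 0.701 FPKM in WT_5d and 0.287 to 0.414 FPKM in PPARγ/+_5d, and was called higher than on 0d in both cell types, with log2 changes of 1.30 (unadjusted call, adjusted p = 0.06) and 1.14 (adjusted p = 0.0053).

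Among the class I genes, which encode decorin, biglycan and asporin, Dcn changed most. Dcn was at 12.3, 36.7 and 7.67 FPKM in WT_0d and at 306, 363 and 219 FPKM in WT_5d, a log2 change of 4.25 (SE 0.55, adjusted p = 0.00215). In PPARγ/+ cells Dcn went from 3.83, 5.10 and 9.38 FPKM on 0d to 430, 476 and 532 FPKM on 5d, a log2 change of 6.37 (SE 0.30, adjusted p = 2.63e-05), the 9th highest of all tested genes. WT_0d replicate 2 was the highest WT_0d library for Dcn, as it was for Myog, and without it the log2 change in WT cells was 4.88. Bgn, the most abundant of the 10 genes in WT_0d, was already at 167, 338 and 239 FPKM in those libraries and reached 724, 888 and 713 FPKM in WT_5d, a log2 change of 1.69 (SE 0.26, adjusted p = 0.004). In PPARγ/+ cells Bgn rose from 306, 389 and 465 FPKM to 969, 961 and 941 FPKM, with a log2 change of 1.33 (SE 0.15, adjusted p = 0.00059). Bgn was thus high on both days, and its change was smaller than that of Dcn in each cell type.

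Aspn encodes asporin, which differs from decorin and biglycan in a stretch of aspartate residues in place of a glycosaminoglycan chain. It was at 3.10, 6.25 and 3.42 FPKM in WT_0d and at 20.7, 6.54 and 7.28 FPKM in WT_5d. WT_5d replicate 1 was well above the other libraries of its group, and the lowest WT_5d library lay only just above the highest WT_0d library. The log2 change of 1.28 (SE 0.49) passed the unadjusted cutoff but not adjustment over all genes (adjusted p = 0.085). In PPARγ/+ cells Aspn went from 1.89, 5.15 and 3.38 FPKM to 9.74, 8.54 and 12.1 FPKM, a log2 change of 1.61 (SE 0.34, adjusted p = 0.00771).

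The class II genes encode lumican, fibromodulin, PRELP and osteoadherin, which bind collagen fibrils and, other than PRELP, can carry keratan sulfate chains. Lum was at or under the limit of 3 fragments in every WT_0d library, with 1, 3 and 0 fragments, and had 147, 329 and 118 fragments in WT_5d (2.78, 8.22 and 2.50 FPKM). Per mapped fragment, the summed 594 fragments of WT_5d were 149-fold the 4 of WT_0d, with an exact 95% interval of 57.9 to 549 that covers counting error only. Lum went from a detection limit to a low level, and in PPARγ/+ cells it did so too, from 4, 1 and 12 fragments on 0d to 289, 313 and 252 fragments on 5d. The log2 changes were 4.98 (SE 0.48, adjusted p = 0.000772) in WT cells and 5.11 (SE 0.39, adjusted p = 0.00012) in PPARγ/+ cells on the log2(FPKM + 0.1) scale, which understates the change of a gene this low. With 1 added in place of 0.1 they were 2.27 and 2.80, and with 0.01 added 7.08 and 6.25.

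Fmod was at 1.82, 3.92 and 2.65 FPKM in WT_0d and at 21.4, 26.5 and 4.61 FPKM in WT_5d. WT_5d replicate 3 stood far below the other libraries of its group and only just above the highest 0d library, and the log2 change was 2.33 (SE 0.67, adjusted p = 0.0363), or 3.11 without that library. In PPARγ/+ cells Fmod went from 9.69, 14.0 and 13.9 FPKM to 29.3, 32.7 and 29.3 FPKM, a log2 change of 1.29 (SE 0.15, adjusted p = 0.000559). Prelp was at 1.497, 8.83 and 2.49 FPKM in WT_0d and at 29.0, 43.8 and 39.5 FPKM in WT_5d, a log2 change of 3.47 (SE 0.60, adjusted p = 0.00603). WT_0d replicate 2 was again the highest WT_0d library, and without it the log2 change was 4.19. In PPARγ/+ cells Prelp went from 9.33, 15.8 and 19.4 FPKM to 70.8, 73.3 and 78.6 FPKM, with a log2 change of 2.38 (SE 0.25, adjusted p = 0.000401).

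Omd, which encodes osteoadherin of mineralised matrix, was at 6.66, 9.89 and 8.33 FPKM in WT_0d and at 11.5, 21.2 and 50.1 FPKM in WT_5d. The WT_5d libraries spread over a wide range, with replicate 3 highest, and the log2 change of 1.48 (SE 0.51) missed the threshold after adjustment (adjusted p = 0.0616). In PPARγ/+ cells Omd was at 27.4, 61.7 and 51.7 FPKM on 0d and at 79.5, 81.5 and 101 FPKM on 5d, a log2 change of 0.97 (SE 0.29, adjusted p = 0.0318) that stayed under 2-fold.

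Ogn encodes mimecan, also called osteoglycin, of class III. It was at 116, 173 and 149 FPKM in WT_0d and at 386, 543 and 855 FPKM in WT_5d, a log2 change of 1.97 (SE 0.31, adjusted p = 0.00402). WT_5d replicate 3, low for Fmod, was the highest of its group for Ogn, as for its neighbour Omd. In PPARγ/+ cells Ogn went from 240, 397 and 414 FPKM to 957, 909 and 956 FPKM, with a log2 change of 1.47 (SE 0.21, adjusted p = 0.00142). Podn, which encodes podocan of a separate class, was low in every library, with 5 to 18 fragments in WT_0d, 27 to 36 in WT_5d, 15 to 44 in PPARγ/+_0d and 69 to 84 in PPARγ/+_5d. Its log2 changes were 1.14 (SE 0.28, adjusted p = 0.0208) in WT cells and 1.44 (SE 0.34, adjusted p = 0.012) in PPARγ/+ cells.

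Without WT_0d replicate 1, 5 of the 9 tested genes remained called in WT cells (Dcn, Lum, Bgn, Ogn and Prelp), and Aspn, Fmod, Omd and Podn did not pass. The WT call of Aspn was lost under 7 of 16 alternatives, among them leaving out WT_0d replicate 1, WT_0d replicate 3 or WT_5d replicate 1 (log2 changes 1.09, 1.16 and 0.75). That of Omd was lost under 6 of 16, among them leaving out WT_0d replicate 1, WT_0d replicate 3, WT_5d replicate 2 or WT_5d replicate 3 (1.33, 1.49, 1.54 and 0.92). That of Podn was lost under 3 of 15, with 1 added before the log (0.28), after quantile normalization (0.97) and without WT_0d replicate 1 (0.99). In PPARγ/+ cells Podn lost its call with 1 added (0.57). With Omd just under 2-fold in PPARγ/+ cells, its call there changed with the scaling, since it was at a log2 change of 1.10 after median-ratio scaling and 1.08 after quantile normalization.

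**Figure D3:**
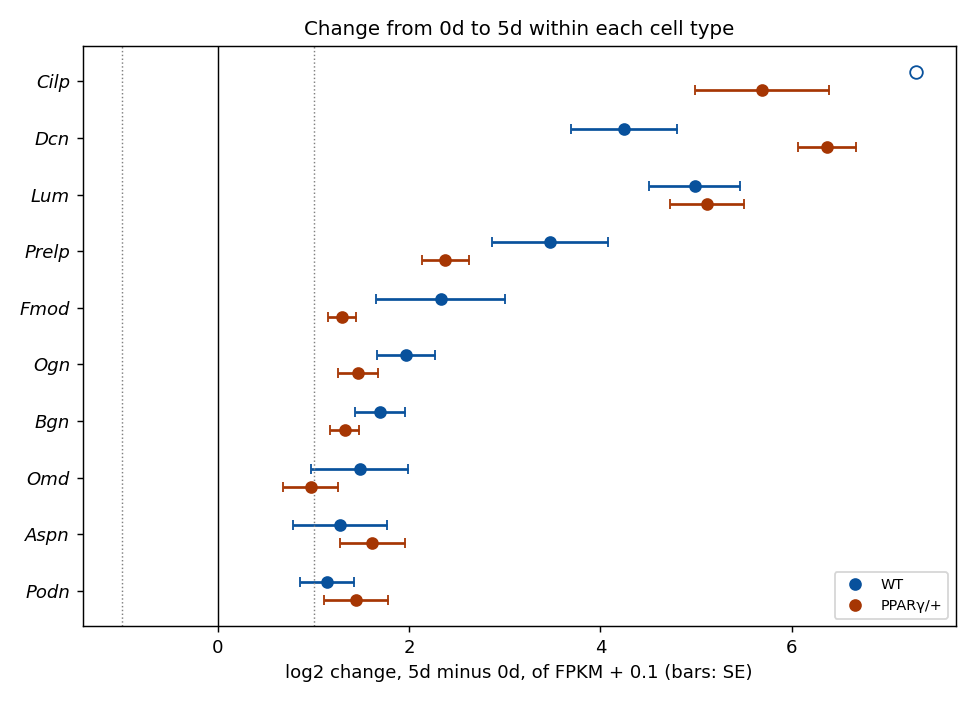
Log2 change from 0d to 5d (x axis, log2 of FPKM + 0.1, with SE bars) for each of the 10 genes (y axis) in WT cells (blue) and PPARγ/+ cells (brown), with dotted lines at a 2-fold change and an open circle for the untested WT value of Cilp. All values lie above 0, and the WT value is the higher of the pair for Cilp, Prelp, Fmod, Ogn, Bgn and Omd and the lower for Dcn, Lum, Aspn and Podn.

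PPARγ/+ cells were next compared with WT cells on each day. Since these are separate cell lines, the transgene and any other difference between the lines cannot be told apart. On 0d, Omd and Fmod were higher in PPARγ/+ cells, 2 of the 9 tested genes, where 0.361% of all tested genes were called higher (limma adjusted p of at most 0.05 and at least 2-fold). Omd was at 6.66 to 9.89 FPKM in WT_0d and at 27.4 to 61.7 FPKM in PPARγ/+_0d, a log2 difference of 2.42 (SE 0.32, adjusted p = 0.023). Fmod was at 1.82 to 3.92 FPKM in WT_0d and at 9.69 to 14.0 FPKM in PPARγ/+_0d, a log2 difference of 2.17 (SE 0.29, adjusted p = 0.0241). Neither gene's libraries overlapped between the cell types. Both calls were close to the threshold. Of the 6 ways to leave out 1 library, 4 ended both calls, namely leaving out WT_0d replicate 1, WT_0d replicate 3, PPARγ/+_0d replicate 2 or PPARγ/+_0d replicate 3, while without WT_0d replicate 2 only Fmod remained called (adjusted p = 0.0478) and without PPARγ/+_0d replicate 1 Omd remained (adjusted p = 0.0247) and Ogn joined it (adjusted p = 0.0468).

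The log2 differences of Omd over those 6 fits stayed between 2.19 and 2.77, and those of Fmod between 1.90 and 2.44. The next genes in the order of size did not pass, Prelp at 2.10 (SE 0.66, adjusted p = 0.143) and Ogn at 1.24 (SE 0.25, adjusted p = 0.0591), although their libraries did not overlap between the cell types either, which made 4 such genes among the 9 tested, beside 13.7% of all tested genes. Podn (0.90), Bgn (0.68) and Lum (0.66, with WT_0d at the detection limit) had positive differences with overlapping libraries, while Aspn (−0.33, SE 0.42) and Dcn (−1.40, SE 0.62, adjusted p = 0.257) had negative ones. Dcn was at 7.67 to 36.7 FPKM in WT_0d and at 3.83 to 9.38 FPKM in PPARγ/+_0d, so that the groups overlapped. Cilp, given with no test, was at a mean of 1.06 FPKM in WT_0d and 5.56 FPKM in PPARγ/+_0d, with overlapping libraries.

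On 5d, all 9 tested genes had a positive difference, from 0.01 for Aspn to 1.91 for Omd, but 0 of 9 were called by limma, where 0.0943% of all tested genes were called higher. At an unadjusted p under 0.05, 5 of the 9 passed, namely Dcn, Ogn, Prelp, Omd and Podn, where 12.7% of all tested genes passed in either direction. The libraries of 7 of the 9 did not overlap, all but Aspn and Lum, against 10.2% of all tested genes in that direction. Prelp was at 29.0 to 43.8 FPKM in WT_5d and at 70.8 to 78.6 FPKM in PPARγ/+_5d, a log2 difference of 1.01 (SE 0.16, adjusted p = 0.099). Omd, at 11.5 to 50.1 FPKM in WT_5d and 79.5 to 101 FPKM in PPARγ/+_5d, had the widest WT spread and a log2 difference of 1.91 (SE 0.51, adjusted p = 0.237).

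The result on 5d depended on WT_5d replicate 3. Without it, 4 of the 9 genes were called higher in PPARγ/+_5d, Omd (log2 difference 2.47, adjusted p = 0.0161), Podn (1.10, adjusted p = 0.0395), Prelp (1.06, adjusted p = 0.0351) and Ogn (1.04, adjusted p = 0.0303), and over all tested genes the calls went from 17 higher and 11 lower to 215 higher and 508 lower. Cilp, untested here, was at 95.9 to 182 FPKM in WT_5d and 208 to 223 FPKM in PPARγ/+_5d, with no overlap.

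**Figure D4:**
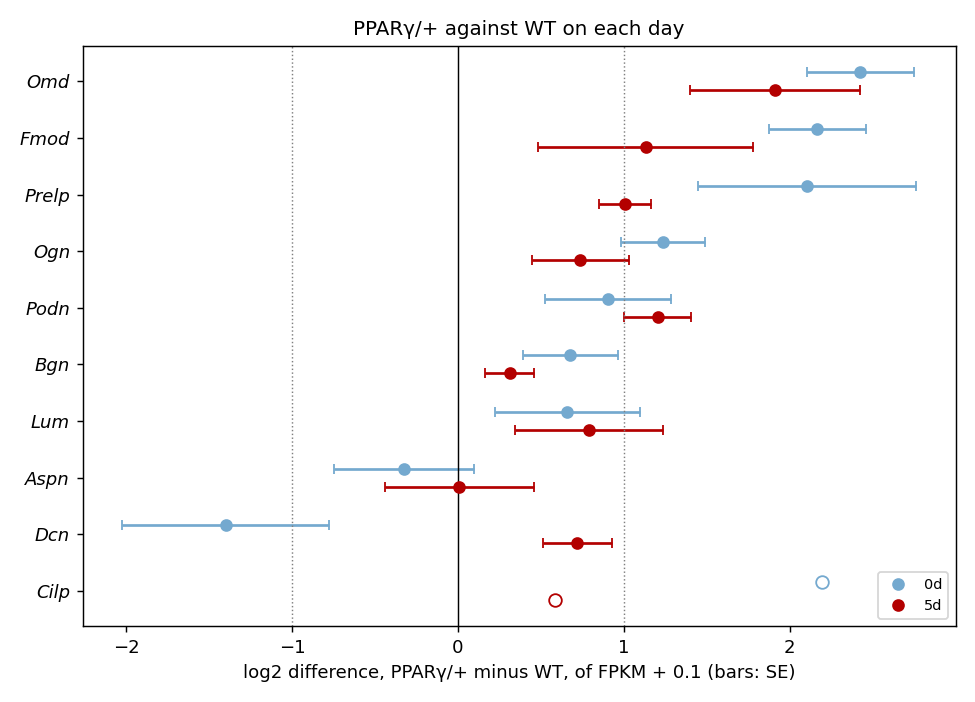
Log2 difference of PPARγ/+ minus WT (x axis, log2 of FPKM + 0.1, with SE bars) on 0d (light blue) and 5d (red) for each of the 10 genes (y axis), with dotted lines at 2-fold and open circles for the untested values of Cilp. Omd and Fmod on 0d lie furthest above 0 of the tested genes, and Dcn on 0d is the furthest below 0.

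Whether the change with day differed between the cell types was tested as an interaction over all 12 libraries. By limma, 0 of the 9 tested genes passed an adjusted p of 0.05, where 0.583% of all tested genes passed in the direction of a larger change in PPARγ/+ cells and 0.178% in the other, and 1 of the 9, Dcn, had an unadjusted p under 0.05, where 12% of all tested genes did. The interaction was 2.12 for Dcn (SE 0.68, adjusted p = 0.226), whose value in PPARγ/+ cells was lower than in WT cells on 0d and higher on 5d. It was −1.10 for Prelp (SE 0.70), −1.04 for Fmod (SE 0.74) and −1.61 for Cilp, the last with no test. Without WT_5d replicate 3, Fmod passed, with an interaction of −1.82 (adjusted p = 0.0255). Over all tested genes, leaving that library out moved the interaction calls from 105 higher and 32 lower to 253 higher and 274 lower.

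Libraries within a group differed more for some of these genes than for others. The SD over the 3 libraries of PPARγ/+_5d was 1.53% to 17.8% of the mean for the 10 genes (median 5.87%), against medians of 47.9% in WT_0d, 35.9% in WT_5d and 42.3% in PPARγ/+_0d. On the log2(FPKM + 0.1) scale, WT_0d replicate 2 was above its group mean by 1.94 for Myog, 1.42 for Prelp, 1.27 for Cilp and 1.27 for Dcn, but by 0.26 for Ogn and 0.27 for Omd. In WT_5d replicate 3, Myog stood at −0.95, Fmod at −1.56, Cilp at −0.59 and Dcn at −0.40 from the group mean, while Ogn and Omd were above it by 0.60 and 1.12. Pdgfra, a receptor of fibroblasts, was also highest in that library among WT_5d, at 13.2 FPKM against 7.04 and 10.3 FPKM. Whether these deviations reflect the composition of the cultures was not tested, nor was their part in the results above.

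**Figure D5:**
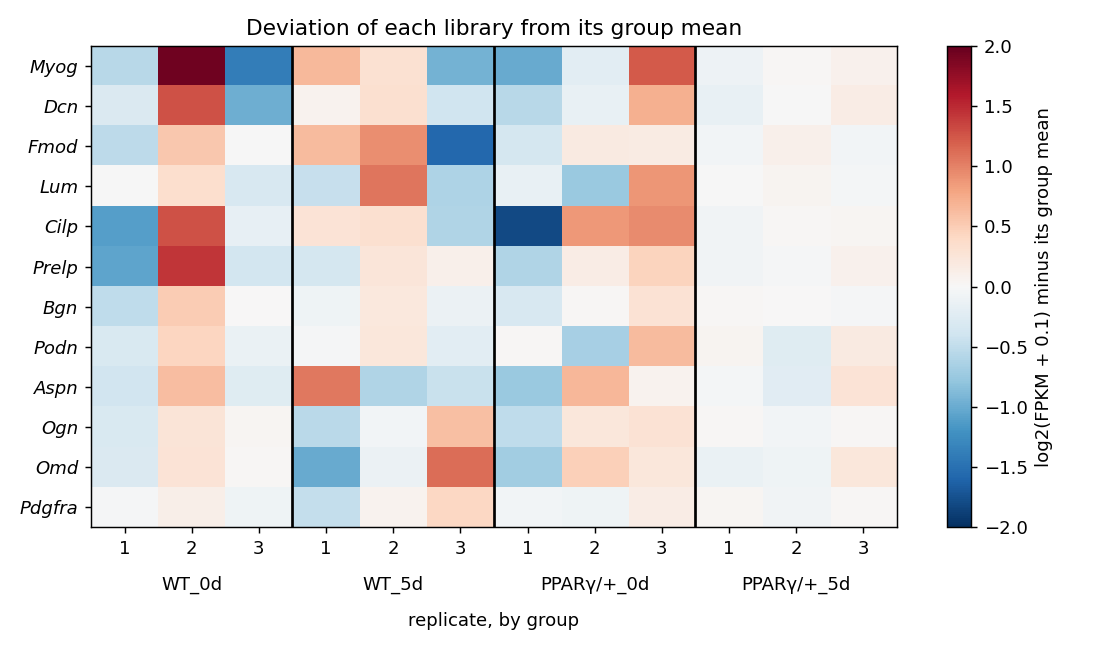
Deviation of each library from its group mean (colour, log2 of FPKM + 0.1) for the 10 genes, Myog and Pdgfra (rows) in the 12 libraries (columns). WT_0d replicate 2 is high for Myog, Dcn, Cilp and Prelp, WT_5d replicate 3 is low for Myog and Fmod and high for Ogn and Omd, and the PPARγ/+_5d columns are pale.

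The neighbours Omd and Ogn can be set against each other within each library, where depth cancels. The FPKM of Ogn was 17.5 to 17.9 times that of Omd in WT_0d and 17.1 to 33.7 times in WT_5d, but 6.43 to 8.77 times in PPARγ/+_0d and 9.42 to 12.05 times in PPARγ/+_5d. The WT libraries thus lay above the PPARγ/+ libraries on both days, with no overlap. This ratio restates the levels of Ogn and Omd given above, and other pairs of genes were not compared in this way.

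Other genes of the family and of its pathway were followed as lists. Of the 9 other genes of the leucine-rich proteoglycan family, 6 were tested, and 3 rose in WT cells (Ecm2, Optc and Podnl1) and 2 in PPARγ/+ cells (Ecm2 and Optc). Ecm2, the neighbour of Aspn, went from 0.659 to 1.09 FPKM in WT_0d to 2.70 to 5.49 FPKM in WT_5d (log2 change 2.23, SE 0.31, adjusted p = 0.00271), and its log2 change in PPARγ/+ cells was 2.67 (SE 0.25, adjusted p = 0.000284). Optc, the neighbour of Prelp, was at 0.0616 to 0.151 FPKM in WT_0d and at 0.358 to 0.765 FPKM in WT_5d.

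The enzymes that build the sugar chains of these proteoglycans moved less. Of 19 tested genes for the linker and for chondroitin or dermatan sulfate, 1 rose in WT cells (Chst13, a sulfotransferase, log2 change 1.94) and 2 in PPARγ/+ cells (Chst13, 1.31, and Chst15, 1.06), and of 5 tested keratan sulfate enzymes 0 were called by limma in either cell type, since none reached 2-fold, while at an unadjusted p under 0.05 alone 4 passed in WT cells and 2 in PPARγ/+ cells. In WT cells the median log2 change was 0.12 for the first list and 0.37 for the second, and in PPARγ/+ cells it was 0.10 and −0.13. The keratan sulfate enzymes went both ways. In WT cells the 5d libraries lay above all 0d libraries for 2 of them and below for 2. In PPARγ/+ cells they lay above for 1 and below for 1. Of the 12 tested large and cell surface proteoglycans, 2 rose in WT cells (Sdc2, a syndecan, 1.73, and Gpc6, a glypican, 1.49) and 4 in PPARγ/+ cells, among them Sdc2 (1.55) and Gpc6 (1.43).

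Of the 13 tested fibrillar collagen and cross-linking genes, 2 rose and 1 fell in WT cells, and 4 rose and 1 fell in PPARγ/+ cells. Col3a1, which encodes the chain of type III collagen, rose in both, with log2 changes of 1.93 (SE 0.20, adjusted p = 0.00104) and 2.18 (SE 0.12, adjusted p = 4.42e-05). Col1a1 was at 34.8 to 151 FPKM in WT_5d and did not pass in WT cells (log2 change 0.44, SE 0.54), while it rose in PPARγ/+ cells (1.77, SE 0.31). Lox, the lysyl oxidase that cross-links collagen, differed little between the days, with log2 changes of 0.09 (SE 0.19) and 0.11 (SE 0.10). Among the 4 tested genes for the processing of procollagen, 1 fell in each cell type, Pcolce2, an enhancer of procollagen C-proteinase, by 2.14 in WT cells and 1.26 in PPARγ/+ cells on the log2 scale.

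Of the 8 ligands and receptors of TGF-β and IGF-1 signalling, 4 rose in WT cells (Igf1, Tgfb2, Tgfb3 and Tgfbr2) and 2 in PPARγ/+ cells (Igf1 and Tgfb2). Igf1, the growth factor, had log2 changes of 4.18 (SE 0.47, adjusted p = 0.00129) and 3.48 (SE 0.33, adjusted p = 0.000281), and Tgfb2 had 1.53 and 1.57. Tgfb1, at 14.4 to 18.4 FPKM over the 12 libraries, and Igf1r, at 4.23 to 7.56 FPKM, did not pass in either cell type.

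Over the 12 libraries, the genes whose log2 level was most like that of Cilp, among 8291 with a mean of at least 5 FPKM in their highest group, were Igf1 (Pearson r = 0.992), Fndc1 (0.991), Zfp651 (0.990), Ccdc80 (0.989) and Angpt4 (0.988). These values describe 12 libraries in 4 groups, which share the difference between the days. Igf1 was at 0.573 to 2.40 FPKM in WT_0d and 18.0 to 27.4 FPKM in WT_5d, and Fndc1, which encodes a fibronectin domain protein, at 1.80 to 5.86 and 58.8 to 89.2 FPKM. Within WT_0d all 5 were highest in replicate 2, as Cilp was. Since the 5 were picked by their likeness to Cilp over these same libraries, nothing is read from that.

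Markers of cell types that make these proteoglycans were read beside them. Of 7 fibroblast markers 6 were tested, and all 6 rose in both cell types, among them Dpt, which encodes the matrix protein dermatopontin (log2 changes 5.35 and 6.54), and Postn, which encodes periostin (3.39 and 6.0). Their summed level was 5.64 to 10.6 FPKM in WT_0d, 41.8 to 72.1 FPKM in WT_5d, 6.46 to 7.83 FPKM in PPARγ/+_0d and 77.2 to 83.7 FPKM in PPARγ/+_5d, while Thy1 was listed at 0 in 9 of the 12 libraries and did not exceed 0.062 FPKM. These markers rose from 0d to 5d, as the proteoglycan genes did. Between the cell types on 0d, the median log2 difference was −0.25 for the 6 tested markers and 0.90 for the 9 genes other than Cilp. On 5d those medians were 0.27 and 0.79. The part of these markers in the result was not tested. Of 10 muscle markers, 7 rose and 1 fell in WT cells and 9 rose in PPARγ/+ cells, and their summed level went from 158 to 366 FPKM in WT_0d to 1078 to 4637 FPKM in WT_5d, and from 69.3 to 110.5 FPKM in PPARγ/+_0d to 1177 to 1383 FPKM in PPARγ/+_5d. The highest WT_0d sum and the lowest WT_5d sum were those of replicate 2 and replicate 3.

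Of the 7 tested adipocyte markers, 1 rose in WT cells and 6 in PPARγ/+ cells, and the summed level of the whole list of 8 was 5.16 to 7.29 FPKM in WT_0d, 4.60 to 8.65 FPKM in WT_5d, 10.6 to 17.2 FPKM in PPARγ/+_0d and 44.8 to 142 FPKM in PPARγ/+_5d. Of 5 tested chondrocyte markers, 2 rose and 1 fell in WT cells and 1 rose and 1 fell in PPARγ/+ cells. Sox9 was at 10.3 to 25.6 FPKM over the 12 libraries, while Col9a1 was listed at 0 in all 12 libraries, Matn1 in 11, and Acan and Col2a1 did not exceed 0.329 and 0.737 FPKM. Of 3 tested osteoblast markers, 0 were called by limma in WT cells (1 at an unadjusted p under 0.05, under 2-fold) and 1 rose in PPARγ/+ cells (Dmp1, log2 change 2.81). Runx2 was at 4.88 to 8.47 FPKM over the 12 libraries, and Ibsp was listed at 0 in all 12. Of 4 tested tenocyte markers, which include Fmod itself, 2 were called higher in each cell type, Tnmd and Fmod. In WT cells the call of Tnmd was unadjusted (limma adjusted p = 0.0748). Its fragments there were 0, 3 and 2 on 0d and 3, 16 and 33 on 5d, with overlapping libraries. Scx was at 33.5 to 83.7 FPKM over the 12 libraries, and Thbs4 was listed at 0 in 11 of 12 libraries.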

How the data were processed

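RNA was measured by paired-end Illumina sequencing of TruSeq RNA libraries in 12 samples, 3 for each cell type (WT and PPARγ/+) on each day (0d and 5d), and the groups were taken from the sample titles. Per the study's methods, reads were cleaned with Trim Galore, mapped with STAR (GRCm38) and counted per gene with HTSeq, and FPKM values were computed by the authors from those counts. The submitters' processing notes name the build mm9 instead. All coordinates here are GRCm38, from GENCODE M21 and RefSeq. The deposited FPKM table was used for every value, and the deposited log2 table was used only to check that it held log2(FPKM + 1) of the same values.

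Genes at 0.1 FPKM or more in at least 3 libraries (18023 of 27138 above 0) were tested with limma 3.58.1 in R 4.3.3 (trend, moderated variance) on log2(FPKM + 0.1), two-sided, with Benjamini-Hochberg adjustment over all tested genes. The fold changes are on that scale and understate changes of low genes. Following the study's cutoffs, changes within a cell type were called at an unadjusted p of at most 0.05 and at least 2-fold, from the 6 libraries of that cell type. Comparisons of cell types used an adjusted p of at most 0.05 and at least 2-fold, from the 6 libraries of that day, and the interaction an adjusted p of at most 0.05, from all 12. The steps were tested on simulated data. The study calls the 3 libraries of a group biological replicates, but no label says that they came from separate cultures, so p-values measure the spread between these libraries, which may be technical.

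Fragments were recovered from the FPKM steps, the exonic length and the mapped fragments. With the annotated length, 78.7% of 26977 genes came out whole within 0.01. Of the 10 genes, 5 had an annotated length that gave whole fragments, and for the other 5 (Aspn, Dcn, Lum, Ogn and Omd) the length was inferred from the same steps. Depth was 18581300 to 26073154 mapped fragments per library, and 3 fragments were taken as the limit of detection. Intervals cover counting error only. No 2 libraries held identical values.

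The genes and lists were chosen with earlier results of these data known. The genes named are the 10 themselves, Pparg, Myog and Myh3 (differentiation markers), the 5 genes most like Cilp, at most the 2 called genes with the largest change per list and comparison, and Tgfb1, Tgfb2, Tgfb3, Igf1, Igf1r, Cilp2, Ecm2, Col1a1, Col3a1 and Lox. Podnl1, Tgfbr2, Mymx, Pdgfra, Col15a1, Pi16, Fap, Cenpp, Gm15851, Scp2 and marker genes named only for their levels were added after their values were seen. Alternatives were other added constants, filters, scalings and fits, a replicate block, and leaving out each library. No table of all genes' counts was analysed here. Figures were drawn with matplotlib 3.10.9.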

Additional observations from a re-analysis of the deposited data

How the results depend on the processing

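From 0d to 5d, every log2 change of the 10 genes stayed above 0 under every alternative in which the gene was tested (Podn fell below the stricter filter, 1 FPKM in 3 or more libraries, and was not tested there). The count of called genes in WT cells (9) was 7 to 9 under other constants, filters, scalings and fits, and 5 to 9 when 1 library was left out. In PPARγ/+ cells (9) it was 8 to 10. Between the cell types on 0d, the count (2) was 0 with no filter on low values, 4 with all 12 libraries in one fit (Ogn and Prelp added), 0 with the replicate block, and 0 to 2 when 1 library was left out. On 5d it was 0 to 4 and for the interaction 0 to 1 when 1 library was left out, the higher values both without WT_5d replicate 3. The cause was not tested.

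Some directions changed for values that passed no test. The interaction of Lum went to −0.82 with 0.01 added before the log, and the difference of Aspn on 5d went to −0.0044 with 1 added and −0.029 after median-ratio scaling. When 1 library was left out, the difference of Aspn ranged from −0.66 to 0.041 on 0d and from −0.29 to 0.53 on 5d, and the interaction ranged from −0.24 to 0.67 for Lum, −1.01 to 0.046 for Omd, −0.033 to 0.86 for Aspn and −0.027 to 0.61 for Podn. Of the other values of single genes under an alternative, 32 lost a call, 15 gained one and 753 counted as unchanged. Unchanged tested values kept their direction and side of the threshold. Unchanged untested values of Cilp stayed within the residual SD of the main fit. The untested change of Cilp in WT cells was 6.24 with 1 added before the log.

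Over all tested genes, libraries of the same replicate number did not deviate together (correlations of −0.07 to 0.08). Among the genes described here, replicate 1 was the lowest 0d library in both cell types for Cilp, Aspn, Bgn, Fmod, Ogn, Prelp and Omd, but not for Dcn, Lum and Podn. Whether libraries of the same number share a batch was not tested. With the replicate as a block, Aspn lost its call in WT cells (limma unadjusted p = 0.0644), and 0 genes of the whole table were called between the cell types on either day. Median-ratio scaling moved the median of all genes from −0.08 to 0.02 in WT cells and from −0.10 to 0.02 in PPARγ/+ cells. Lum and Podn, with few fragments on 0d, are limited by depth.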
